A study of Mus musculus with 10 samples.

Results

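The genes that hydroxylate collagen chains, chaperone them and start their cross-linking were followed in the hearts of mice lacking PDK1 in adipocytes. They are P4ha1, P4ha2, P4hb, Serpinh1, Plod1, Plod2, Plod3, Crtap, P3h1 and Lox, taken by gene symbol, and all 10 were found among the 11790 genes of the deposited expression table. The set was chosen by function after P4ha1 and Serpinh1 had been called as lower in A-PDK1KO hearts by this same contrast. The genotype differences and calls of its members are therefore given as a description, and their p-values are not printed. The samples are 5 hearts of A-PDK1KO mice, in which 3-phosphoinositide-dependent kinase 1 (PDK1, encoded by Pdpk1) was deleted in adipocytes, and 5 hearts of control mice, whose genotype is PDK1 flox/flox. The mice were 10 to 11 weeks old, were killed in the randomly fed state and gave whole-tissue RNA. The labels used here name neither the promoter that drives the deletion nor the sex of the mice. The controls carry the floxed alleles.

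Collagen is made in the endoplasmic reticulum (ER), where its chains are hydroxylated before they wind into a triple helix. Prolyl 4-hydroxylase, built from catalytic alpha subunits (P4ha1 or P4ha2) and the beta subunit protein disulfide isomerase (P4hb), makes the 4-hydroxyproline that keeps the helix stable at body temperature. Lysyl hydroxylases (Plod1, Plod2, Plod3) prepare lysines for sugar attachment and cross-linking, and the complex of P3h1 and Crtap with a cyclophilin 3-hydroxylates single prolines. HSP47, encoded by Serpinh1, is a chaperone that binds folded procollagen, and lysyl oxidase (Lox) starts the cross-links outside the cell. In the heart fibroblasts make most of the fibrillar collagen, while P4hb also serves general protein folding in every secreting cell.

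In A-PDK1KO hearts the transcripts of the alpha subunit P4ha1 and of the chaperone Serpinh1 stood furthest below the controls (a change of -38.7% and -36.5% in mean level), and those of Plod1 and P4hb were lower by smaller amounts (-24.8% and -16.3%). In each of these 4 genes all 5 A-PDK1KO hearts lay below all 5 control hearts. The paralogues P4ha2, Plod2 and Plod3, the prolyl 3-hydroxylase pair Crtap and P3h1, and Lox had groups that overlapped. Genotypes were compared with limma on log2(FPKM + 1) over the 9987 genes that averaged 1 FPKM or more, a level all 10 members reached. FPKM are read fragments divided by gene length and by library size. At a Benjamini-Hochberg adjusted p under 0.05, 4 of the 10 members were called, against 2.08% of all tested genes, and all 4 were lower, against 0.871% of all tested genes called as lower. The groups did not overlap in the same 4, against 2.23% of tested genes with all A-PDK1KO hearts below all controls and 4.96% in either direction. Nothing is read from these shares, since the set was chosen with this contrast in view.

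The promoters of the 4 lower genes are shown because these were the members whose groups did not overlap. Each line is the stretch of 250 bases before the RefSeq transcript start (build GRCm38.p6, the coordinates of mm10), 5′ to 3′ on the gene's strand. Capitals mark matches, on either strand, to ACGTG (the core of the hypoxia response element), CCAAT and TATAAA.
P4ha1, chr10:59323046-59323295, plus strand: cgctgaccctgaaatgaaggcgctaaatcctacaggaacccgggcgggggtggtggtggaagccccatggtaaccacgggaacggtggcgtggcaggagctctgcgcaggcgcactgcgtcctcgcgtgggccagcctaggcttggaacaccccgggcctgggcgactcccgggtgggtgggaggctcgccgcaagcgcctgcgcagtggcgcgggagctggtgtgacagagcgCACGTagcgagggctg
Serpinh1, chr7:99353240-99353489, minus strand: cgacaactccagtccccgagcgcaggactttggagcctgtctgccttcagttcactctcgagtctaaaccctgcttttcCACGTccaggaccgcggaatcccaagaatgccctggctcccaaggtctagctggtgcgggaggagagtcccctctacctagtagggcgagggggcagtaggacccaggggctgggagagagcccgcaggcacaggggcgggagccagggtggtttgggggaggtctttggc
P4hb, chr11:120573254-120573503, minus strand: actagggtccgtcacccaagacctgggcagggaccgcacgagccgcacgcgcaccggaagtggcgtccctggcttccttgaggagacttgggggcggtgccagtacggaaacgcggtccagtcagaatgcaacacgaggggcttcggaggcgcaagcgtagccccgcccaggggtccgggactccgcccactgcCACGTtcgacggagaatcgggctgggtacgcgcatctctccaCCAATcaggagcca
Plod1, chr4:147936777-147937026, minus strand: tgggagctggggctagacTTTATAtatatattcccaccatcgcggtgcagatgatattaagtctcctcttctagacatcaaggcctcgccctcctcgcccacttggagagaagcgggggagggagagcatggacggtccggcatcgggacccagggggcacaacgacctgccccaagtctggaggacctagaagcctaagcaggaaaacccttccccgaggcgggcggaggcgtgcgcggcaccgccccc
The core ACGTG was found in P4ha1, Serpinh1 and P4hb but not in Plod1. It begins 16, 171 and 56 bases before the start in those 3 genes. It was also found in P4ha2, 78 bases before the start, in Plod3, 54 bases before it, and in 1 of the 2 windows of P3h1, 31 and 19 bases before it, all members whose groups overlapped. Of all 32851 promoter windows of this length, 16.6% hold ACGTG, 33.9% CCAAT, 32.7% the GC box GGGCGG and 12.4% TATAAA. P4hb carries CCAAT 14 bases before its start, and GGGCGG is present in all 4 promoters shown, as well as in those of P4ha2 and P3h1. The inverted heat shock element pairs GAANNTTC (6.69% of windows) and TTCNNGAA (7.17%) had no match in these 4, and among the 8 members with a window P4ha2 held 1 match, to TTCNNGAA. The 4 promoters have a G and C content of 61.6% to 69.6%, that of P4ha2 has 70.0% and those of the other members 53.6% to 58.4%, against a median of 52.4% over all windows. These matches are of letters only.

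P4ha1 (chromosome 10, 59323296 to 59373304, plus strand, positions here and below in mm10 from the GENCODE annotation) encodes a catalytic alpha subunit. Controls 1 to 5 gave 13.9, 14.9, 17.98, 13.3 and 15.7 FPKM of this transcript. In A-PDK1KO hearts 1 to 5 it was 8.82, 7.26, 9.68, 11.2 and 9.39 FPKM. The highest A-PDK1KO heart, replicate 4, was thus below the lowest control, replicate 4 of that group. The means were 15.1 ± 1.84 and 9.28 ± 1.44 FPKM (mean ± SD, n = 5 per group), a 1.63-fold lower level, and the log2 difference was -0.65 ± 0.11 (SE). Relative to the control mean the A-PDK1KO hearts stood at 48.0% to 74.2%. Between 291 and 696 reads per heart lay behind these values, so counting alone gives a coefficient of variation (CV) of 4.44% at the mean depth, against 12.2% observed among controls.

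P4ha2 (chromosome 11, 54100095 to 54131665), the alternative alpha subunit, was at 3.14, 3.67, 4.12, 5.12 and 3.07 FPKM in controls and at 3.01, 3.91, 3.37, 3.90 and 3.10 FPKM in A-PDK1KO hearts. The groups overlapped, with controls 3 and 4 above every A-PDK1KO heart, and the log2 difference was -0.10 ± 0.12. As FPKM are per length, the subunits can be set side by side within a heart, but only roughly. The length used was that of all annotated exons of a gene, and the transcripts made may be shorter. The same limit holds for every ratio, share or order of levels between genes below. P4ha1 exceeded P4ha2 by 2.59 to 5.11 times in controls and by 1.85 to 3.03 times in A-PDK1KO hearts (mean 4.11 ± 0.934 and 2.72 ± 0.485). Control replicate 4, which had the most P4ha2, fell inside the A-PDK1KO range of this ratio.

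P4hb (chromosome 11, 120560298 to 120573253) encodes the beta subunit, which keeps the alpha subunits soluble and is also a disulfide isomerase in its own right. It was at 66.4, 76.6, 75.7, 79.4 and 74.5 FPKM in controls and at 63.2, 59.9, 60.8, 63.4 and 64.6 FPKM in A-PDK1KO hearts. The gap between the groups was narrow, with the highest A-PDK1KO heart at 64.6 and the lowest control at 66.4 FPKM. The means were 74.5 ± 4.90 and 62.4 ± 1.95 FPKM and the log2 difference was -0.25 ± 0.06. P4hb was in excess of both alpha subunits together in every heart, by 3.43 to 4.32 times in controls and by 4.19 to 5.36 times in A-PDK1KO hearts. The groups overlapped in this ratio.

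Serpinh1 (chromosome 7, 99345376 to 99353239, minus strand), the collagen chaperone HSP47, had the highest level of the set. Its values were 107.5, 106.7, 158, 112 and 132 FPKM in controls and 88.4, 61.7, 81.7, 88.8 and 70.3 FPKM in A-PDK1KO hearts. Control replicate 3 stood well above the other controls, and A-PDK1KO replicate 2 was the lowest heart, as it was for P4ha1. The means were 123 ± 21.99 and 78.2 ± 11.9 FPKM, a 1.57-fold lower level, with a log2 difference of -0.65 ± 0.13. With 1469 to 3632 reads per heart, counting contributes a CV of 2.01%, and the observed CV was 17.9% in controls and 15.2% in A-PDK1KO hearts. The ratio of P4ha1 to Serpinh1 in a heart was nearly the same in both groups, 0.124 ± 0.010 in controls and 0.119 ± 0.013 in A-PDK1KO hearts.

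**Figure D1:**
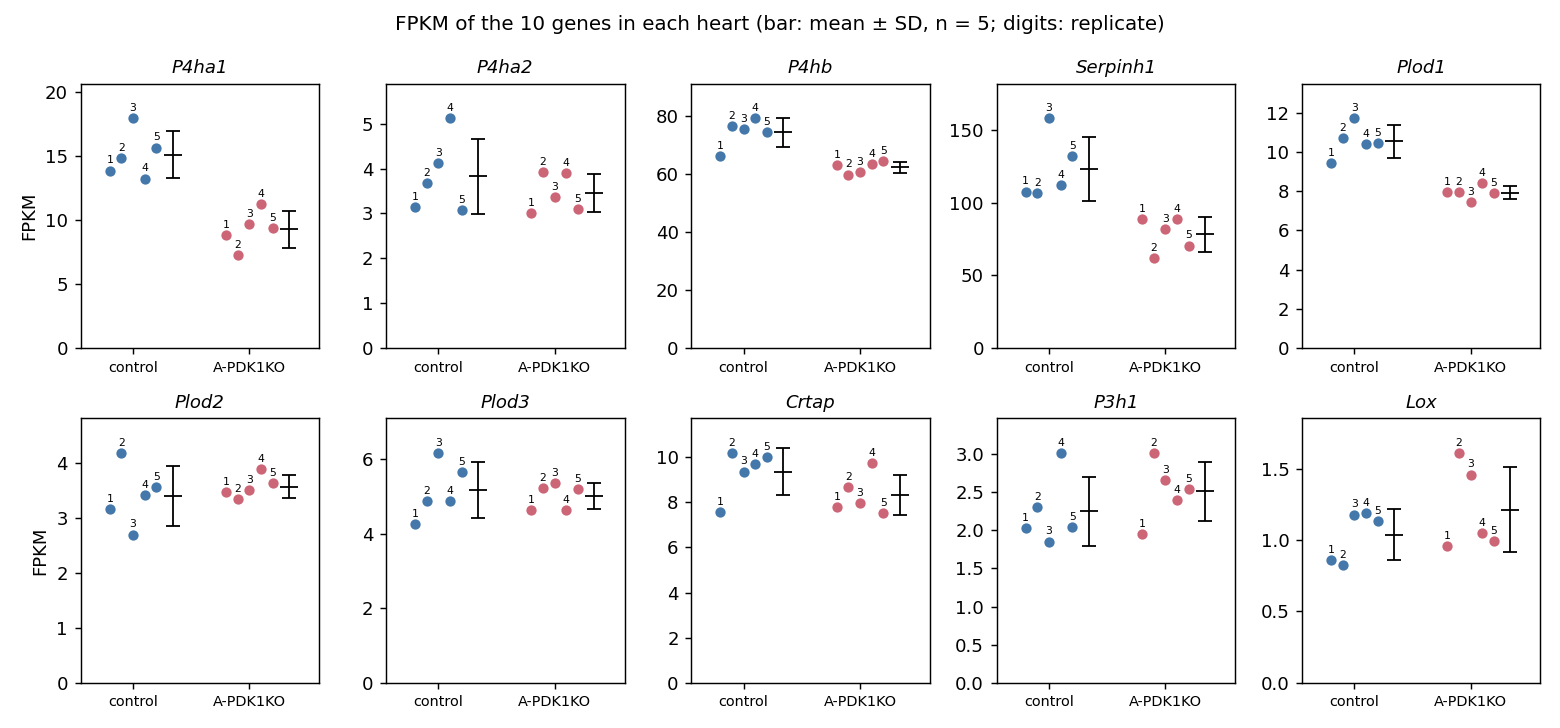
FPKM (vertical axes, each from 0) of the 10 genes in the 5 control and 5 A-PDK1KO hearts; points are hearts, digits are replicate numbers and bars are mean ± SD. The groups are separate for P4ha1, P4hb, Serpinh1 and Plod1 and overlap for the other 6.

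Among the lysyl hydroxylases, Plod1 (chromosome 4, 147909753 to 147936767), which acts on lysines of the helical part of the chain, was at 9.41, 10.7, 11.7, 10.4 and 10.4 FPKM in controls. In A-PDK1KO hearts it was at 7.94, 7.95, 7.44, 8.40 and 7.89 FPKM, all below the lowest control. The means were 10.5 ± 0.824 and 7.92 ± 0.341 FPKM (1.33-fold lower, log2 difference -0.37 ± 0.07). The A-PDK1KO hearts were close to each other, with a CV of 4.30% against 3.98% from counting alone.

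Plod2 (chromosome 9, 92542223 to 92608428), the enzyme for the ends of the chain, where cross-links form, was at 3.17, 4.19, 2.70, 3.42 and 3.57 FPKM in controls. It was at 3.48, 3.35, 3.51, 3.89 and 3.63 FPKM in A-PDK1KO hearts, all within the range of the controls (log2 difference 0.06 ± 0.09). Plod3 (chromosome 5, 136987019 to 136996648), which can also attach sugars to hydroxylysine, was at 4.26, 4.87, 6.16, 4.88 and 5.64 FPKM in controls and at 4.64, 5.22, 5.35, 4.63 and 5.19 FPKM in A-PDK1KO hearts, with controls on either side of every A-PDK1KO heart (log2 difference -0.03 ± 0.09). It shares 529 exon bases, or 11.7% of its exon length, with Znhit1 on the opposite strand. Znhit1 had a mean of 13.45 FPKM, and the strand setting of the counting is not given, so the level of Plod3 is uncertain to that extent.

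Within the summed lysyl hydroxylase transcripts the share of Plod1 was lower in every A-PDK1KO heart than in every control. Plod1 took 53.2% to 56.9% of their summed FPKM in controls and 45.7% to 49.6% in A-PDK1KO hearts (means 55.2 ± 1.497 and 48.0 ± 1.65). The mean percentages (± SD) taken by Plod2 and Plod3 were 17.9 ± 2.95 and 26.9 ± 2.28 in controls and 21.6 ± 0.970 and 30.3 ± 2.20 in A-PDK1KO hearts. Their groups overlapped, at 13.1% to 21.2% and 20.3% to 23.0% for Plod2 and at 24.6% to 29.9% and 27.3% to 32.8% for Plod3. The ratio of Plod1 to Plod3 was 2.06 ± 0.170 and 1.59 ± 0.169, and the ratio of Plod1 to Plod2 was 3.17 ± 0.682 and 2.22 ± 0.104. Neither ratio overlapped between the groups, as was so for 3 of the 10 ratios computed among members and collagen chains, all chosen after the values were seen. A ratio within a heart does not depend on the scaling of its library.

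**Figure D2:**
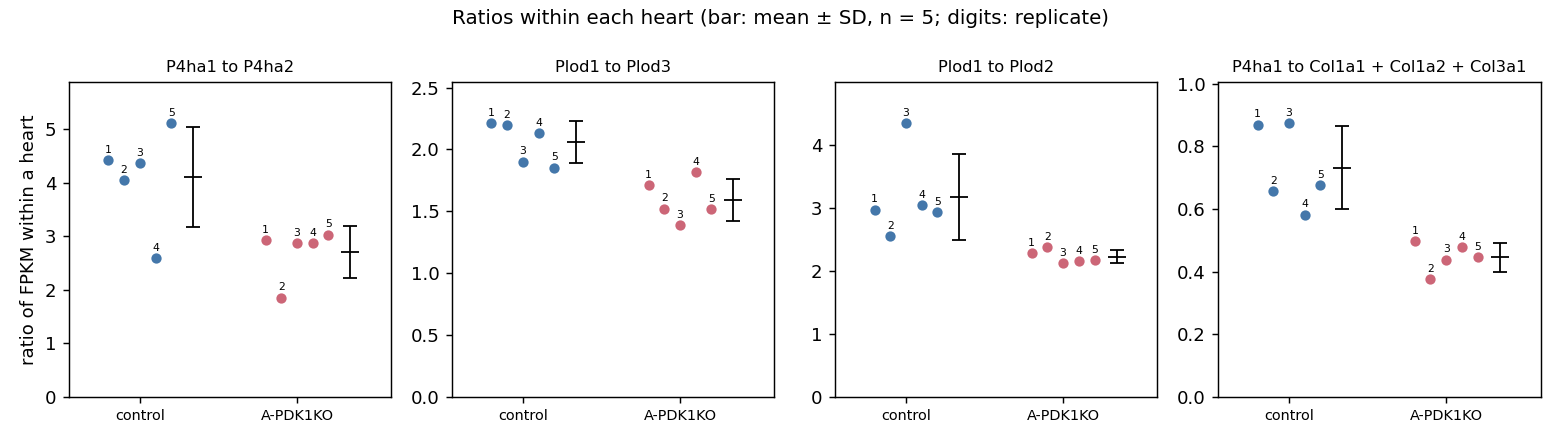
Ratios of FPKM within each heart (vertical axes from 0), with points for hearts, digits for replicate numbers and bars for mean ± SD. Plod1 to Plod3, Plod1 to Plod2 and P4ha1 to the summed Col1a1, Col1a2 and Col3a1 are separate between genotypes, while in P4ha1 to P4ha2 control replicate 4 lies among the A-PDK1KO hearts.

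Crtap (chromosome 9, 114375134 to 114390675) is the non-catalytic partner of the prolyl 3-hydroxylase. It was at 7.57, 10.2, 9.36, 9.69 and 10.0 FPKM in controls and at 7.77, 8.69, 7.97, 9.72 and 7.52 FPKM in A-PDK1KO hearts. Control replicate 1 lay with the lower A-PDK1KO hearts and A-PDK1KO replicate 4 with the controls, and the log2 difference was -0.15 ± 0.09. P3h1 (chromosome 4, 119232915 to 119248975), the catalytic partner, was at 2.02, 2.31, 1.85, 3.01 and 2.04 FPKM in controls and at 1.95, 3.01, 2.66, 2.40 and 2.54 FPKM in A-PDK1KO hearts (log2 difference 0.12 ± 0.11). The cyclophilin of this complex, Ppib, named here outside the rule for named genes, was at 11.9 ± 1.29 and 12.5 ± 0.800 FPKM. None of the 3 parts of this complex was called, against 2.08% of all tested genes, so nothing is read from this.

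Lox (chromosome 18, 52516067 to 52529867) had the lowest level of the set. It was at 0.860, 0.826, 1.18, 1.19 and 1.13 FPKM in controls and at 0.960, 1.61, 1.46, 1.05 and 0.990 FPKM in A-PDK1KO hearts, with A-PDK1KO replicates 2 and 3 above every control. The log2 difference was 0.11 ± 0.11. Only 38 to 77 reads per heart lay behind these values, and counting gives a CV of 13.5% at that depth, against an observed 17.3% and 24.7%. A difference of the size seen for P4hb would be hard to detect in Lox at this depth.

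**Figure D3:**
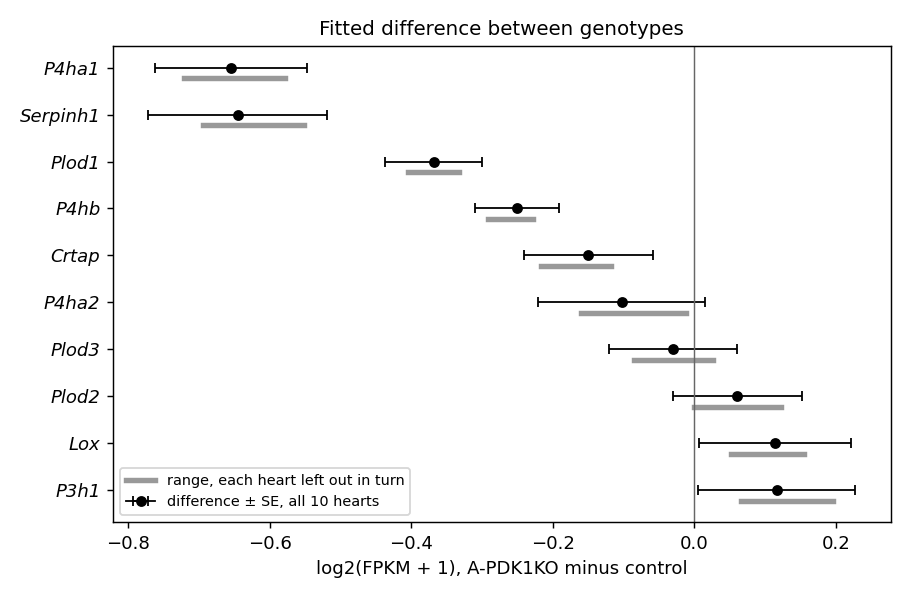
Fitted difference of log2(FPKM + 1), A-PDK1KO minus control (horizontal axis), for each gene; points with bars are the estimate from 10 hearts ± SE and grey lines the range when each heart is left out in turn. P4ha1 and Serpinh1 lie lowest, at -0.65 each, and the grey lines of P4ha1, Serpinh1, Plod1, P4hb, Crtap and P4ha2 stay below 0.

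The order of the mean levels in controls was Serpinh1, P4hb, P4ha1, Plod1, Crtap, Plod3, P4ha2, Plod2, P3h1 and Lox, from 123 to 1.04 FPKM. The ranges of Plod1 and Crtap overlapped, as did those of Plod3 and P4ha2, of P4ha2 and Plod2, and of Plod2 and P3h1. Those neighbours are not separated by their ranges over hearts. In A-PDK1KO hearts the ranges of Serpinh1 (61.7 to 88.8 FPKM) and P4hb (59.9 to 64.6 FPKM) overlapped, and so did those of P4ha1 (7.26 to 11.2 FPKM), Crtap (7.52 to 9.72 FPKM) and Plod1 (7.44 to 8.40 FPKM). P4ha2 (3.01 to 3.91 FPKM) and Plod2 (3.35 to 3.89 FPKM) overlapped there too. The order of the means differed between the genotypes only by swaps within Plod1 and Crtap and within P4ha2 and Plod2, which are not separated in either. Among all listed genes Serpinh1 and P4hb are abundant, above 96.9% and 95.7% of them by mean FPKM, while P3h1 and Lox stand above 40.2% and 18.6%.

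The 4 lower genes did not all vary together within the genotypes. Control replicate 3 was the highest control for P4ha1, Serpinh1 and Plod1, at 119%, 128% and 111% of the control mean, but not for P4hb, at 102%. A-PDK1KO replicate 2 was the lowest for P4ha1 (48.0%), Serpinh1 (50.1%) and P4hb (80.4%), and replicate 4 was the highest for P4ha1 (74.2%), Serpinh1 (72.1%) and Plod1 (79.7%). As a measure of likeness the deviations from the genotype mean on log2(FPKM + 1) were correlated over the 10 hearts, as a description of 9987 genes in the same libraries. Among the other members the deviations of P4ha1 were most like those of Serpinh1 (r = 0.81) and Plod1 (r = 0.53), and least like those of P3h1 (r = -0.55). P4hb (r = 0.26) was less like P4ha1 than Plod3 (r = 0.34) and Crtap (r = 0.27), whose groups overlapped. Outside the set the most similar genes to P4ha1 were Slc25a39 (r = 0.92), Retsat (0.91), the heat shock genes Hspa1a (0.90) and Hspb1 (0.89), and Trf (0.89). For Serpinh1 they were Eef2-ps2 (0.92), Tesc (0.83), Lsm2 (0.83), Chaer1 (0.81) and Polr2f (0.80). Picked as the highest of 9987 genes over only 10 hearts, such r values can arise by chance, and nothing is read from the names. The inducible heat shock gene Hspa1a had its highest control value in replicate 3, at 30.6 FPKM, and its highest A-PDK1KO value in replicate 4, at 27.2 FPKM, with all other hearts between 2.08 and 17.2 FPKM. Its near-identical copy Hspa1b makes that level uncertain, and its part in the result was not tested.

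**Figure D4:**
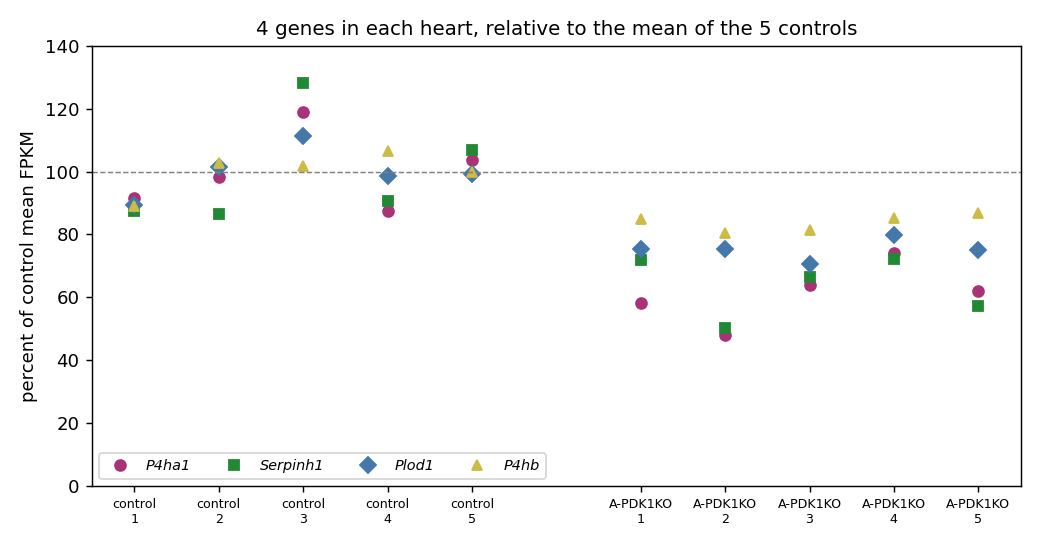
FPKM of P4ha1, Serpinh1, Plod1 and P4hb in each heart as a percentage of the mean of the 5 controls (vertical axis from 0; dashed line, 100%). All A-PDK1KO points lie between 48.0% and 86.7%, and control replicate 3 is high for 3 of the 4 genes.

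The other steps of collagen production were taken from 5 further lists that hold no member. They cover other ER enzymes of collagen, its export, procollagen processing and cross-linking, the collagen chains and collagen turnover. Of their 55 tested genes limma called 0 at an adjusted p under 0.05, against 2.08% of all tested genes. At that share 0 of 55 is not unusual. In limma 6 had an unadjusted p under 0.05, against 15.6% of all tested genes (1554 of 9987). Limma voom on reads recovered from the FPKM values also called 0. The median log2 difference was 0.03 over these genes, -0.13 over the 10 members and 0.02 over all tested genes.

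Of 9 other ER enzymes and factors of collagen folding 8 lay above 0 (median log2 difference 0.08), against 5457 of all 9987 tested genes. Tmem38b, an ER potassium channel, was at 7.32 ± 0.641 and 9.43 ± 1.30 FPKM with groups that did not overlap (log2 difference 0.32, limma adjusted p = 0.108). Fkbp10, a prolyl isomerase that acts with HSP47, was at 9.13 ± 1.77 and 10.7 ± 1.14 FPKM, and Creb3l1, a transcription factor of collagen secretion, at 1.98 ± 0.154 and 2.40 ± 0.332 FPKM. In export, the 10 genes had a median of 0.04. The KDEL receptor Kdelr1, which returns ER proteins from the Golgi, was at 44.9 ± 3.12 and 38.4 ± 1.93 FPKM (limma adjusted p = 0.112), Mia2 at 2.68 ± 0.373 and 3.42 ± 0.422 FPKM and the coat subunit Sec23a at 6.21 ± 0.329 and 7.30 ± 1.18 FPKM.

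None of the collagen chains passed the test, against 2.08% of all tested genes that did. In 15 tested chains the median log2 difference was -0.01, with a range of -0.19 to 0.25. Col3a1 was at 8.27 ± 1.06 and 7.49 ± 1.34 FPKM, Col15a1 at 5.39 ± 1.10 and 4.55 ± 0.625 FPKM and Col5a3 at 1.65 ± 0.268 and 2.18 ± 0.637 FPKM. The type I chains Col1a1 (7.32 ± 1.29 and 7.90 ± 0.887 FPKM) and Col1a2 (5.42 ± 0.850 and 5.37 ± 0.696 FPKM), named after their values were seen, had log2 differences of 0.11 and -0.01. Set against the sum of Col1a1, Col1a2 and Col3a1 in the same heart, P4ha1 was at 0.582 to 0.874 in controls and 0.375 to 0.496 in A-PDK1KO hearts. The same ratio for Serpinh1 was 4.72 to 7.68 and 3.19 to 4.98, with A-PDK1KO replicate 1 inside the control range. Both ratios were computed after the values were seen.

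Procollagen processing and cross-linking genes other than Lox had a median of 0.06 over 11 tested. Loxl1, a relative of Lox, was at 10.2 ± 1.53 and 11.4 ± 1.75 FPKM, above Lox in mean level in both genotypes. Pcolce, which enhances removal of the C-terminal propeptide, was at 6.66 ± 0.850 and 6.003 ± 0.732 FPKM, and the small proteoglycan Lum at 14.4 ± 2.24 and 13.0 ± 2.35 FPKM. In turnover, Timp4, a metalloproteinase inhibitor of the heart, was at 7.32 ± 1.27 and 5.31 ± 0.538 FPKM (log2 difference -0.39, limma adjusted p = 0.0963). The membrane proteases Mmp15 and Mmp14 were at 13.7 ± 2.27 and 10.9 ± 1.25 FPKM and at 2.36 ± 0.562 and 2.87 ± 0.0919 FPKM, respectively.

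**Figure D5:**
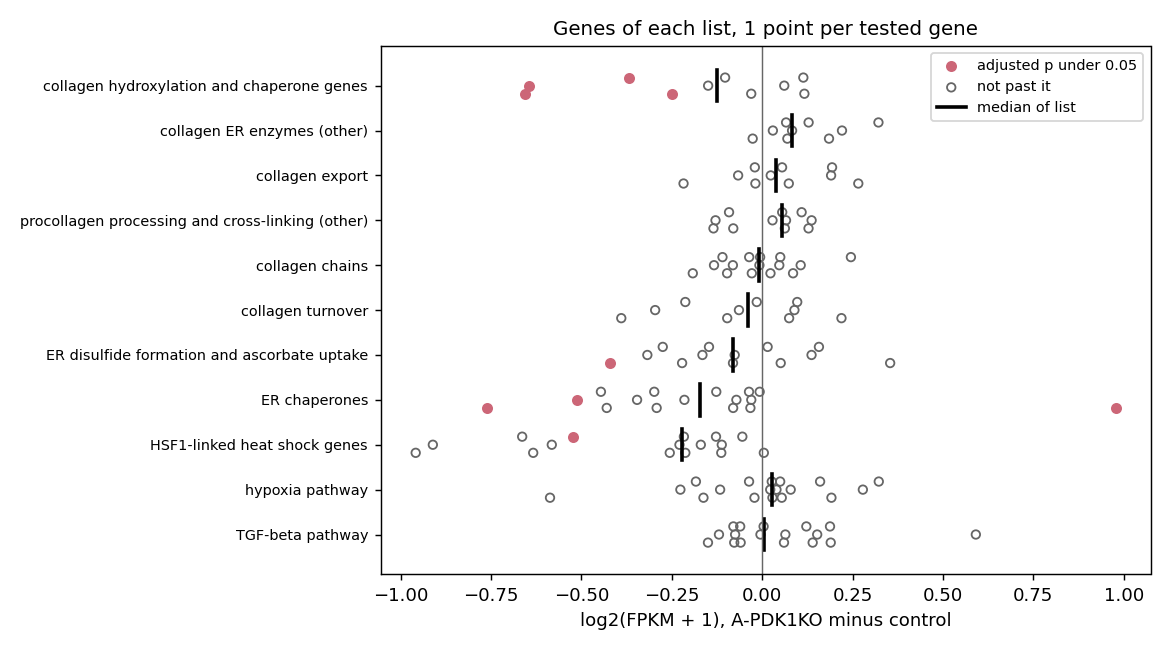
Difference of log2(FPKM + 1), A-PDK1KO minus control (horizontal axis), for every tested gene of each list; filled points passed an adjusted p under 0.05 in limma and vertical lines are list medians. The 5 collagen lists hold no filled point, and the filled points of the ER and heat shock lists are Pdia4, Manf, Hspa5, Herpud1 and Hspb1.

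The lists of ER folding and heat shock genes held 5 of the 208 called genes. Over all 9987 tested genes 2.08% were called, and 4530 lay below 0. Of 13 genes of ER disulfide formation and ascorbate uptake 1 fell. It was Pdia4, a disulfide isomerase related to P4hb, at 9.38 to 12.5 FPKM in controls and 7.53 to 8.34 FPKM in A-PDK1KO hearts (11.0 ± 1.32 and 7.95 ± 0.301 FPKM, log2 difference -0.42 ± 0.08, limma adjusted p = 0.0235, n = 5 per group). Of 16 ER chaperone genes Manf and Hspa5 fell and Herpud1 rose, and 15 lay below 0 (median -0.17). Of 16 heat shock genes linked to the factor HSF1, to which Serpinh1 also responds, Hspb1 fell (327 ± 51.6 and 227 ± 31.7 FPKM, limma adjusted p = 0.0325) and 15 lay below 0 (median -0.22). Unadjusted p was under 0.05 in limma in 5, 9 and 7 genes of these lists, in this order, against 15.6% of tested genes. Groups did not overlap in 2, 5 and 1 of them, against 4.96% of tested genes. The lists were chosen with earlier results of these data known, so these shares are a description. The log2 differences were -0.76 for Manf (14.8 ± 2.89 and 8.22 ± 0.424 FPKM, limma adjusted p = 0.00956), -0.51 for Hspa5 (108 ± 19.7 and 74.2 ± 2.89 FPKM, limma adjusted p = 0.0329) and 0.98 for Herpud1 (76.3 ± 7.85 and 153 ± 29.1 FPKM, limma adjusted p = 0.00497). Manf is a secreted ER stress protein, Hspa5 the general ER chaperone BiP and Herpud1 a part of ER-associated degradation. The calls of Manf and Herpud1 held in every fit that left out 1 heart. Those of Pdia4, Hspa5 and Hspb1 were lost in 5, 8 and 8 of the 10, with adjusted p up to 0.0686, 0.0859 and 0.0839 in limma, among them the fits without control replicates 1 or 3 and without A-PDK1KO replicates 1, 3 or 5. Hspa5 also lost its call without control 4 or A-PDK1KO hearts 2 or 4, and Hspb1 without controls 2 or 5 or A-PDK1KO heart 2.

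Hypoxia and TGF-beta genes were listed because P4ha1, P4ha2, Plod2 and Lox are known to respond to those signals. Of 18 hypoxia pathway genes limma called 0, against 2.08% of all tested genes (median 0.03, voom called 0). In limma 3 had an unadjusted p under 0.05, a share near the 15.6% of all tested genes. Egln3, which hydroxylates prolines of HIF, was at 24.1 ± 6.25 and 15.6 ± 3.94 FPKM (limma adjusted p = 0.138), Arnt, the partner of HIF alpha subunits, at 3.75 ± 0.433 and 4.95 ± 0.602 FPKM and Epas1 (HIF-2 alpha) at 24.4 ± 6.91 and 28.9 ± 1.67 FPKM. Of 17 TGF-beta pathway genes limma also called 0, against the same 2.08% (median 0.00, voom called 0). In limma 2 had an unadjusted p under 0.05, again against 15.6% of all tested genes. Smad7, an inhibitor of the pathway, was at 2.27 ± 0.418 and 2.75 ± 0.684 FPKM and the receptor Tgfbr2 at 5.72 ± 0.621 and 6.64 ± 0.251 FPKM.

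Cell makeup was read from marker lists, and in whole-heart RNA fewer cells of a type and less RNA per cell cannot be told apart. The summed FPKM of 8 fibroblast markers was 155 to 192 in controls and 153 to 191 in A-PDK1KO hearts, and Dcn and Dpt made up most of it. Of the 8, 7 lay above 0, with 0 called by limma or voom and Lum below 0. In limma 2 had an unadjusted p under 0.05, Tcf21 (means 2.44 and 3.12 FPKM) and Fbln1 (14.0 and 17.6 FPKM), against 15.6% of tested genes. Over all 9987 tested genes 5457 lay above 0 and 4530 below, and limma called 2.08%. The 5 activated fibroblast markers tested summed to 8.06 to 14.7 and 8.92 to 12.3 FPKM, and the 6 endothelial markers to 162 to 200 and 163 to 238 FPKM. The 6 cardiomyocyte markers summed to 11432 to 13961 FPKM in controls and 10707 to 12490 FPKM in A-PDK1KO hearts, all 6 below 0 and 0 called by limma, and voom called 1. An unadjusted p under 0.05 in limma was found for 3, Tnni3, Myl2 and Actc1, against 15.6% of tested genes. Tnni3 was at 2157 ± 94.2 and 1865 ± 71.0 FPKM (limma adjusted p = 0.0605). Its groups did not overlap, as in 4.96% of tested genes. Of 6 markers of adipocytes, the target of the deletion, 1 is among the listed genes. It is Cfd, at 0 to 1.11 and 0 to 1.36 FPKM, which was under the filter and not tested, and the other 5 were not analysed here. Macrophage markers summed to 72.2 to 83.2 and 59.6 to 80.2 FPKM, smooth muscle and pericyte markers to 119 to 187 and 120 to 153 FPKM, and the erythroid markers varied most, at 27.9 to 1391 and 68.6 to 228 FPKM. The part of these lists in the differences of P4ha1, Serpinh1, P4hb and Plod1 was not tested. The 4 atrial markers summed to 214 to 579 and 184 to 268 FPKM, and all 4 lay below 0, with 0 called by limma and 1 by voom. Among them Nppa, the atrial natriuretic peptide gene, named after its values were seen, was at 375 ± 117 and 206 ± 54.3 FPKM (log2 difference -0.84, limma adjusted p = 0.0908), and Myl7 was at 0 to 85.9 and 0 to 47.6 FPKM. Nppa made up most of the sum in every heart. Control 1 had 486 FPKM of Nppa but 0 of Myl7, and control 2 had 325 and 85.9 FPKM. Myl7, Myl4 and Sln were highest in controls 2 and 5 and A-PDK1KO hearts 3 and 5. In the other hearts Myl7 was at 0 to 0.877 FPKM. The sum thus follows Nppa and does not show how much atrial tissue a heart held. With Myl7 as a covariate the log2 differences of P4ha1 and Serpinh1 were both -0.65, and P4hb, at -0.25, was no longer called.

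The libraries had 9249256 to 11384423 counted reads, as implied by the value of 1 read, and mitochondrially encoded transcripts took 32.7% to 41.5% of them. Control replicate 4 (32.7%) and A-PDK1KO replicate 2 (34.3%) had the lowest such shares. Pdpk1 was at 3.14 to 3.77 FPKM in controls and 2.73 to 4.04 FPKM in A-PDK1KO hearts, which does not test a deletion made in adipocytes. Since the set was chosen on this contrast in these hearts, how its calls moved when hearts were left out is a description of the fits and no support for the differences. P4ha1 was called in each of the 10 fits that left out 1 heart, at log2 differences of -0.72 to -0.58. The call of P4hb was lost in 9 of these fits and kept only without control 1. That of Serpinh1 was lost in 4 (without control 3 or 5, or A-PDK1KO heart 3 or 5), and that of Plod1 in 3 (without control 3, or A-PDK1KO heart 3 or 5). Leaving out control 3, or A-PDK1KO heart 3 or 5, left 1 member called, and leaving out control 5 left 2. With control 4 and A-PDK1KO heart 2 both left out P4ha1 and Plod1 were called. In all 25 other settings tried the 4 log2 differences kept their sign, which some of these settings could not change.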

How the data were processed

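RNA from 5 A-PDK1KO and 5 control hearts was compared, each column mapped to its sample by the identifier in the sample's title. The authors deposited FPKM values, with Trimmomatic 0.38, HISAT2 2.1.0, featureCounts 1.6.3 and the build mm10 named in the submitters' processing notes, and FastQC 0.11.7 per the labels' protocols. Annotation and strand setting: not given in the sources used here. Every listed gene reaches at least 1 FPKM in some heart. A deposited column of other cluster labels was not used.

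Here FPKM were converted to log2(FPKM + 1), and genes averaging 1 FPKM or more were fitted with limma 3.58.1 in R 4.3.3 (empirical Bayes trend, two-sided, Benjamini-Hochberg adjustment, threshold 0.05, no covariate). Fold differences are ratios of mean FPKM, and log2 differences understate the change of low genes. Positions and union exon lengths came from GENCODE mouse release M21, and reads recovered with them were whole, within 0.05 of a read, for 98.3% of genes. The implied depth, 9249256 to 11384423 reads, sets the counting error, and CVs of counting cover that error only. On simulated reads for 9717 genes the fit for A-PDK1KO against control found 44.8% of the 1.5-fold and 96.8% of the 2-fold changes, with 6 false calls among 139. Those reads were drawn independently for each gene, with the same dispersion for all genes. Variation shared by many genes of a heart was not simulated, so these rates need not hold for the real hearts.

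The members and lists were chosen with earlier results of these data known. All members are named, with up to 4 called genes of each list or, where none was called, the 3 of largest absolute difference; 1 gene under this rule is not reported here. Genes of like pattern are the 5 of highest Pearson r for P4ha1 and Serpinh1, predicted genes left out. Ctgf was matched as Ccn2. Alternatives tried were another pseudocount, filter, scale, variance model or threshold, a replicate block, Myl7 as a covariate, voom on recovered reads and each heart left out. Leaving out control 4 and A-PDK1KO heart 2 together was added after seeing the data. Replicate numbers were not found to pair the hearts. No pair of hearts within a group matched within sampling noise.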

Additional observations from a re-analysis of the deposited data

Results flagged for a closer look

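One gene named in the report had a heart that stood apart from its group. Hspb1 was at 418.7 FPKM in control replicate 3, against 294 to 313 FPKM in the other 4 controls, so that the gap to the nearest control was 0.85 of the group's range. It was the 1 such heart among 72 groups of 5 hearts examined, where chance alone gives about 1 in 20, and no member of the collagen set had one. Control replicate 3 was also the highest control for P4ha1, Serpinh1 and Plod1, and without it the log2 difference of Hspb1 was -0.43 (limma adjusted p = 0.0599, against 0.0325 with it) and that of Serpinh1 -0.55.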

How the results depend on the processing

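The log2 differences of P4ha1, Serpinh1, Plod1 and P4hb stayed below 0 in all 25 alternative settings. The other filters, the replicate block, robust empirical Bayes and the other thresholds leave these estimates unchanged, so the sign could not change there. The members were chosen on this contrast, so the number of settings is no support for the differences. The 4 calls among the members became 2 on the TPM scale, with median-of-ratios factors, with quantile normalization and without control 4 and A-PDK1KO heart 2, and 0 at an adjusted p under 0.01. P4ha1 lost its call in 1 setting, Plod1 in 6, Serpinh1 in 8 and P4hb in 18. Their median of -0.13 became -0.31 over the members averaging 5 FPKM or more. The 208 genes called (121 higher, 87 lower) became 62 on the TPM scale, 314 (220 higher, 94 lower) with library sizes free of mitochondrial and haemoglobin genes, 102 higher and 105 lower with median-of-ratios factors, 61 higher and 88 lower without A-PDK1KO heart 2, 412 with sample weights, 369 at an adjusted p under 0.1 and 23 under 0.01. The 5 called genes of the other lists became 2 on the TPM scale, 9 with sample weights, 8 with Myl7 as a covariate, 9 at an adjusted p under 0.1, 2 under 0.01 and 3 without control 4 and A-PDK1KO heart 2. When each heart was left out, 57 to 150 genes, 1 to 4 members and 2 to 7 genes of the other lists were called, and the members' median was -0.19 to -0.09. Leaving out a heart also lowers the sample number, and otherwise the cause was not tested.

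Replicate numbers gave no sign of pairing the hearts. Same-numbered hearts had deviations correlated at -0.12 to 0.09 and none was most like its own number. The labels do not say what the numbers mark, and low correlations cannot exclude a pairing. With the replicate block 153 genes, 2 members (P4ha1 and Serpinh1) and 4 genes of the other lists were called.

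Depth limits the lowest members: Lox and P3h1 had 38 to 113 reads per heart, so that differences as small as that of P4hb are within reach of counting error there. The titles number the hearts and give each its own identifier but do not state that each came from a separate mouse. The p-values therefore measure only the spread between these samples, technical or not.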
